A study of Mus musculus with 26 samples.

Results

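The genes Tal2, Zfp229, Gpx8, F930017D23Rik, Nudt1, Mrm2 and Lefty2 were examined in reduced-representation bisulfite sequencing (RRBS) of mouse sperm. They are 7 of 49939 genes in the RefSeq table used, and they were chosen because CpGs in or near them differed between SSCT and control sperm in these data and were then followed by the study with bisulfite PCR. Values of these CpGs between SSCT and control groups are therefore a description. Their calls in a test over all positions are given below as a description too. A position belonged to a gene when it lay inside the GRCm38 RefSeq span or within 2000 bp of it. Of 2626422 positions with at least 10 reads in at least 1 library, 371 belonged to the genes, of which 258 had 10 reads in 13 or more libraries, 73 in all 20 offspring libraries and 14 in all 26 libraries. The span of Mrm2 lies within that of Nudt1, all of its covered positions belong to Nudt1 as well, and they are counted once in these totals.

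SSCT stands for spermatogonial stem cell transplantation, in which cultured stem cells of the testis are placed into an infertile male. In SSCT F0, 3 W/W-v males carried cultured DBA/2J donor cells, from which their sperm derived. Control F0 comprised 3 males of the DBA/2J strain. Both were 16 to 18 months old when epididymal sperm was collected. The offspring were 3 month old males labelled DBA/2J, 5 in each titled set: control F1, SSCT F1, and the second generation through the maternal (SSCT F2/M) or paternal line (SSCT F2/P). A smaller amount of DNA was used for the 3 SSCT F0 libraries than for all others, so that the effects of input and of transplantation cannot be told apart in F0. The W/W-v host strain likewise goes with the SSCT F0 group alone.

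The offspring libraries carry conflicting names. The sample titles and the published heat map name the same 4 sets of 5 libraries differently. Group means of coverage at the followed CpGs were computed from the libraries and set beside those in the supplement: 0 of 55 matched under the titles, 36 under the heat map, and 53 when SSCT F2/M and SSCT F2/P of the heat map were exchanged. In this exchanged naming the libraries titled SSCT F2/M are control F1, those titled SSCT F2/P are SSCT F1, those titled SSCT F1 are SSCT F2/M and those titled control F1 are SSCT F2/P. Under the exchanged names the SSCT F1, F2, F2/M and F2/P comparisons tested 714804, 504896, 609446 and 664351 positions. These lie within a few positions of the paper's totals of measured CpGs. Under the titles they tested 597393, 569896, 664351 and 695210. The exchanged naming thus meets the study's own numbers, and titled groups may not be what they are called. Groups below still carry their titles, and the comparisons of groups are given under the titles and under the exchanged names. Single libraries were left out under the titles only. The F0 names are the same in all 3 namings.

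Libraries held between 45609751 and 87705464 reads at CpG positions. The offspring libraries listed 1995475 to 2232455 positions, whereas SSCT F0 replicates 1, 2 and 3 listed 1977072, 1123552 and 305946. Over all reads, 30.4%, 19.9% and 6.73% were methylated in these 3 libraries, against 28.4 to 39.1% in control F0 and 33.6 to 39.96% in the offspring. Added control DNA read 0.542 to 1.26% methylated when unmethylated and 98.2 to 98.9% when methylated. As a check of the sperm label, 7 of 10 promoters of maternally methylated imprinted genes, which are unmethylated in sperm, were covered and read 1.21 to 4.14% in offspring, 1.69 to 2.80% in control F0 and 4.17 to 5.29% in SSCT F0. All 8 promoters of germ cell genes were covered and read 1.74 to 5.62% in the 26 libraries. Of the paternally methylated loci, H19 had 0 covered positions in the window searched. The window upstream of Rasgrf1 read 11.7 to 28.4% in offspring, 14.9 to 33.2% in control F0 and 0.0532 to 10.3% in SSCT F0, and that upstream of Meg3 read 0 to 9.13% in all libraries, so that the windows searched at these loci were not highly methylated. These windows were set by distance from the gene start and averaged whole. Whether they held the imprinted regions was not checked, so the values do not give the level of those regions.

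In mammals, DNA methylation is found mainly at cytosines followed by guanine (CpGs). CpG-dense promoters are usually free of it, whereas scattered CpGs in gene bodies and between genes are mostly methylated. Bisulfite converts unmethylated cytosines only, so that the share of unconverted reads gives the level at a position, and RRBS limits sequencing to fragments beginning at CCGG, the site cut by MspI. Tal2 encodes a basic helix-loop-helix transcription factor, Zfp229 a zinc finger protein, and Gpx8 a glutathione peroxidase of the endoplasmic reticulum. Nudt1 encodes the enzyme that removes oxidised nucleotides from the nucleotide pool, Mrm2 a methyltransferase of mitochondrial ribosomal RNA, and Lefty2 a secreted antagonist of Nodal signalling. F930017D23Rik is annotated as a long non-coding RNA.

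The promoter sequences (RefSeq, GRCm38.p6, 250 bases before and 50 after the start, 5′ to 3′ on the gene's strand) are shown for 3 genes, because most positions with reads in every library lay in or beside such stretches and not at the followed CpGs. Capitals mark CpGs with at least 10 reads in at least 1 library.
Tal2, chr4:53779451-53779750, plus strand: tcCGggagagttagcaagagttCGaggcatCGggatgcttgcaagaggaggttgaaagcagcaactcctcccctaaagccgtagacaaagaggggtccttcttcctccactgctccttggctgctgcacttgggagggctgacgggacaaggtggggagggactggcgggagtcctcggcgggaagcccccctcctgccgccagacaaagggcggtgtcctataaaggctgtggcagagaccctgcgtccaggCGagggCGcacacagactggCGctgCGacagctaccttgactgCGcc
Gpx8, chr13:113046339-113046638, minus strand: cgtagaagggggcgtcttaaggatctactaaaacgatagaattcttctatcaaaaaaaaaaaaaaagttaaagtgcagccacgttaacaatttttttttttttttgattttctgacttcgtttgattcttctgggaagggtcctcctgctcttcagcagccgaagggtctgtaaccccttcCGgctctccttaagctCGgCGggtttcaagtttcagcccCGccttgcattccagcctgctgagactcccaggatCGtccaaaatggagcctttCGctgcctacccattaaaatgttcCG
Nudt1, chr5:140321372-140321671, plus strand: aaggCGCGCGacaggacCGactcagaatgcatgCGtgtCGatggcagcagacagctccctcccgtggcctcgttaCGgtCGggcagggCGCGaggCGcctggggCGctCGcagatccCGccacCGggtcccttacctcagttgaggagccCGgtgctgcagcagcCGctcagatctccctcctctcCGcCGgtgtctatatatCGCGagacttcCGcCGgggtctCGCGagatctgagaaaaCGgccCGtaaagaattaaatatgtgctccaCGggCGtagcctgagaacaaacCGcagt
Among 32851 RefSeq promoters of this length the median held 7 CpGs and 52.8% held CCGG. The Tal2 window held 16 CpGs and 1 CCGG, and 9 CpGs were covered, the last of which is cut by the end of the window and is not in capitals. In Gpx8, 7 of 13 CpGs were covered, and in Nudt1 30 of 32. The Zfp229 promoter held 8 CpGs and 0 CCGG and had 0 covered positions. That of F930017D23Rik held 2 CpGs, of which 1 was covered. Every position of the lists that fell within a promoter of the table, 231533 in all, stood at a CpG of the listed strand.

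The primer pairs of the study's bisulfite PCR are listed here, and their places in the genome were not determined. They are written for converted DNA, in which an unmethylated cytosine reads as thymine, and the forward primers hold no cytosine and the reverse primers no guanine. Mrm2 had no pair of its own.
Tal2 forward: gattggattttagatgaaagaataa
Tal2 reverse: caatccaattcataaattaacaaaactt
Zfp229 forward: gggagtgattaggagtgaatttat
Zfp229 reverse: ttaatcccaacactcaacaaaca
Gpx8 forward: tttaattttgtggaagatggg
Gpx8 reverse: atctaaaaatataaaatctatcaaactt
F930017D23Rik forward: ttattaaggaggattagggtggt
F930017D23Rik reverse: cttactaataaaatcaaaactaaactccta
Nudt1 forward: ttattgagataaggagttgagta
Nudt1 reverse: ccacaaaatatccacaaaatatc
Lefty2 forward: aggttaggaggagatatatattaggt
Lefty2 reverse: aaaaaataaaatccttataaaaac

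Most covered positions of the genes were either unmethylated or methylated in nearly every mouse. Of the 258 positions, 209 had a median level under 10%, 39 over 90% and 10 in between. Thus 81.0% were low and 15.1% high, against 63.3% and 29.7% of 1680028 positions covered as widely in the whole series. All 25 such positions of Tal2 and all 10 of Zfp229 were low. Gpx8 had 14 low positions and 2 in between, and Lefty2 29 low and 1 in between. F930017D23Rik differed from these, with 17 high and 11 low positions, and Nudt1 had 120 low, 22 high and 7 in between. Mrm2, whose positions all belong to Nudt1 too, had 41 low, 12 high and 6 in between.

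**Figure D1:**
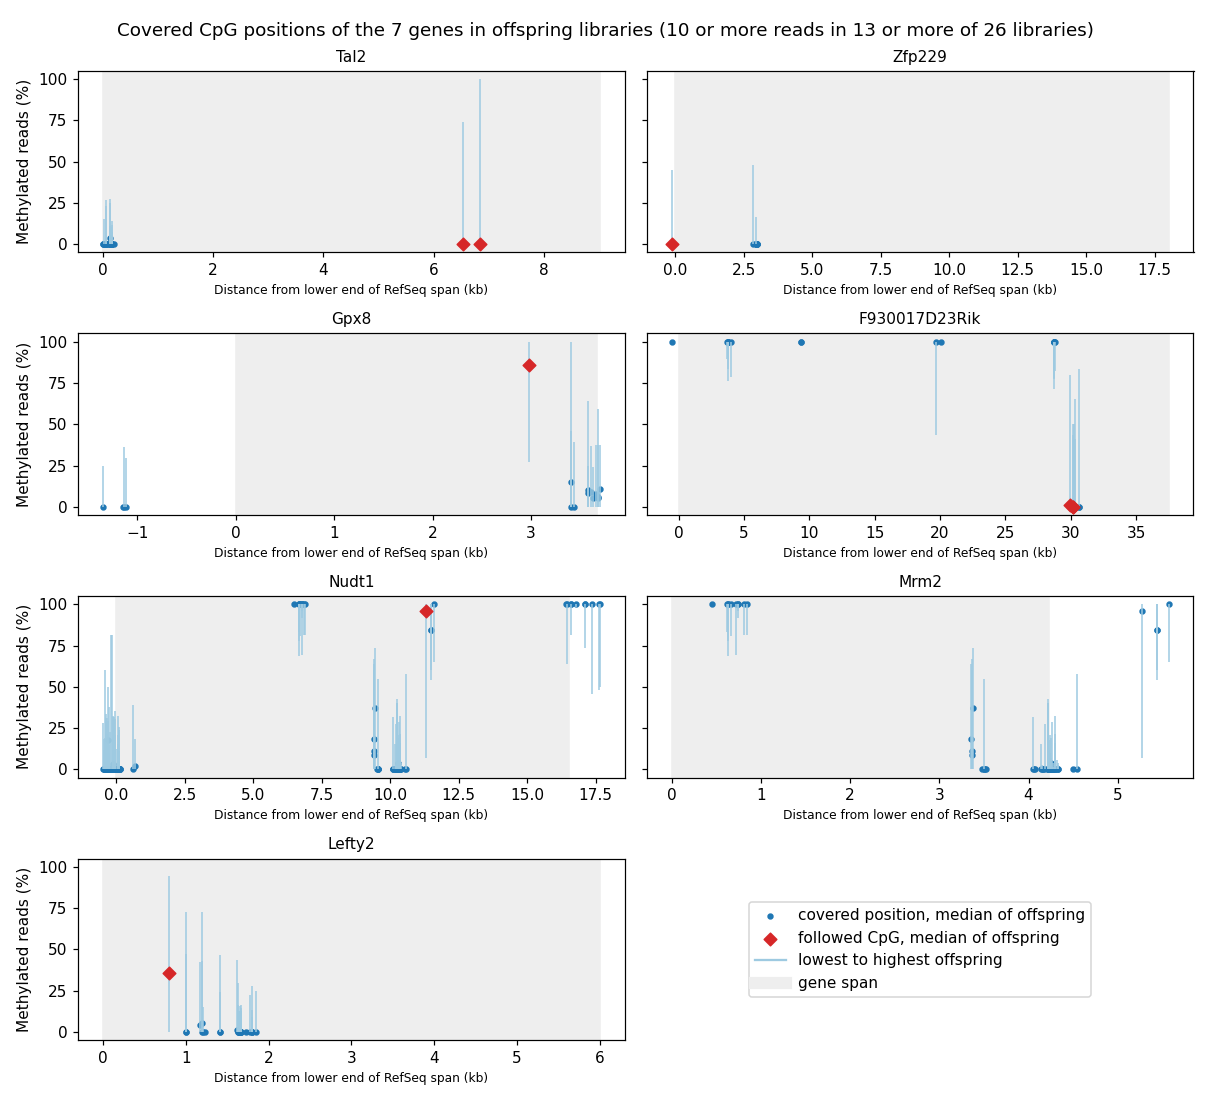
Covered CpG positions of the 7 genes. The horizontal axis gives the distance from the lower end of the RefSeq span in kb, the vertical axis the methylated reads in percent; points are medians over the offspring libraries, lines run from the lowest to the highest offspring library, diamonds are followed CpGs and the grey area is the gene span. Runs of low positions stand at the start of Tal2 and Nudt1, runs of high ones in F930017D23Rik, and the followed CpGs stand mostly apart from such runs with long lines.

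At the low positions most values of single mice were 0 as well. At the 120 low positions of Nudt1, 88.2% of the library values were exactly 0, and the mean per library ran from 0.805 to 3.29% in offspring and from 1.83 to 2.89% in control F0. The 41 low positions of Mrm2 read 0.0694 to 4.38% in offspring, and 89.4% of values were 0. For Tal2, 82.9% of values were 0 and the offspring means ran from 0.251 to 6.54%. Lefty2 had 82.1% of values at 0 and offspring means of 0.993 to 7.85%. Gpx8 was less uniform, with 58.5% of values at 0 and offspring means of 2.44 to 19.5%. The widest ranges of offspring means were found at the 11 low positions of F930017D23Rik, from 0 to 27.8%, and at the 10 of Zfp229, from 0 to 22.6%, with 79.1% and 94.2% of values at 0. At the high positions of F930017D23Rik 87.8% of values were exactly 100 and offspring means ran from 92.9 to 100%, and at those of Nudt1 83.8% were 100 and the means ran from 91.2 to 99.6%.

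The 14 positions read in all 26 libraries were 5 of Tal2, 4 of Gpx8, 1 of F930017D23Rik and 4 of Nudt1, of which 3 belong to Mrm2 as well. Zfp229 and Lefty2 had none. The 5 of Tal2 lay between 136 and 173 bp inside the span and read 0 in 16 to 24 of the 26 libraries, with a highest value of 15.3%. All 3 SSCT F0 libraries were at 0 at each of them. The 4 of Gpx8 lay between 113046418 and 113046457 on chromosome 13, at the start of the gene, and their offspring values ran from 0 to 59.1%. In control F0 they did not exceed 7.69%, and in SSCT F0 7.41%. Of the 4 Nudt1 positions, 140331949 and 140331951 on chromosome 5 were at 0 in 25 of 26 libraries each. At 140321523, 99 bp before the span, the SSCT F0 replicates read 16.1%, 30.4% and 0%, control F0 2.70%, 5.80% and 0%, and the offspring 0 to 19.05%. The single position of F930017D23Rik was the followed CpG at 43623330, and it was the only followed CpG among the 14.

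Of 24 followed positions given by the study, 16 stood in the lists and 13 were matched to a position with at least 10 reads in some library. Since neighbouring entries for Zfp229 and for Lefty2 fell on the same position, these were 11 positions of the lists, which gave 227 library values, of which 92 were exactly 0, 33 exactly 100 and 102 in between. At 9 of the 11 there was no other position with 10 reads in 13 libraries within 50 bp, the exception being the strands of 1 CpG of F930017D23Rik. Among all 1000 bp windows with such a position, 22.4% held just 1 and the median window held 3. The annotation used gives gene spans and starts but no exons, so that exon or intron is not stated here.

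**Figure D2:**
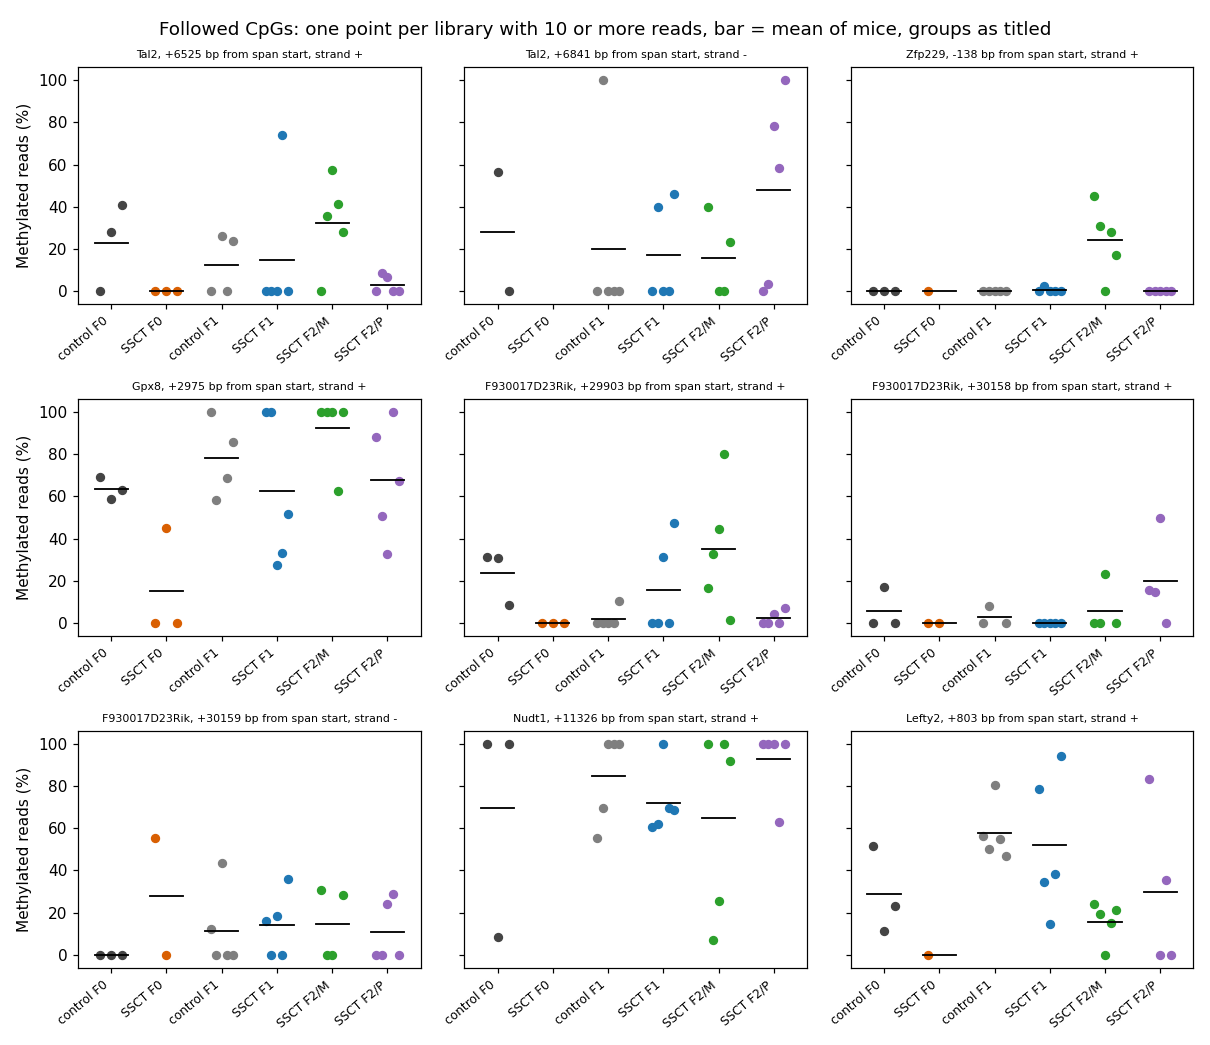
Methylated reads in percent at the 9 followed CpGs covered in more than 12 libraries. Each point is 1 library with at least 10 reads, bars are means of the mice, and libraries are grouped by title along the horizontal axis. Values of 0 and of 50% or more occurred within the same titled group at several CpGs, and at Zfp229 4 of the 5 libraries titled SSCT F2/M stood above all others, which lay between 0 and 2.33%, while the fifth was at 0.

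Tal2 had 2 followed CpGs with at least 10 reads on chromosome 4, 6525 and 6841 bp inside its span of 9012 bp. At 53786226, plus strand, the control F0 mice read 0%, 27.9% and 40.6%, and the 3 SSCT F0 mice 0% with 44, 189 and 1325 reads. The libraries titled SSCT F2/M read 0%, 35.7%, 57.6%, 41.2% and 27.9%, a mean of 32.5% ± 21.2 (SD, n = 5), and this set is control F1 in the exchanged naming. Those titled SSCT F2/P read 0%, 8.57%, 6.52%, 0% and 0%, and 1 of those titled SSCT F1 read 74.2% while its other 4 were at 0. The libraries titled control F1 read 0%, 26.3%, 0% and 24.0%, with 1 below 10 reads. Control and SSCT F0 overlapped, since 1 control mouse was at 0.

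The second Tal2 CpG, at 53786542 on the minus strand, covered the whole scale. Control F0 read 56.5% and 0% in the 2 mice with reads, and no SSCT F0 mouse had a read. Those titled SSCT F2/P read 0%, 3.45%, 78.4%, 58.3% and 100%, a mean of 48.0% ± 44.8 (SD, n = 5). Among those titled control F1, 4 were at 0 and 1 at 100%. Libraries titled SSCT F1 read 0%, 40%, 0%, 0% and 46.2%. The nearest covered neighbour before these CpGs lay at the start of the gene, at 53779909, and was at 0 in all 20 libraries that covered it. Over the 15 Tal2 positions covered in control F0 and all offspring, which lay between 53779750 and 53779874 at the start of the gene, no offspring mouse exceeded 4.24% as a mean.

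Zfp229 had 1 followed CpG, at 21730817 on chromosome 17, at -138 bp from the lower end of its span and thus outside it. Its control F0 mice were at 0 in 3 of 3, and the single SSCT F0 mouse with at least 10 reads was at 0 as well. The libraries titled SSCT F2/M, which are control F1 in the exchanged naming, read 45.2%, 30.8%, 0%, 28.2% and 17.2%, a mean of 24.3% ± 16.8 (SD, n = 5). The other 15 offspring libraries were at 0, except for 1 titled SSCT F1 at 2.33%. The set that differed thus stood on the SSCT side under the titles and on the control side under the exchanged names. At the next covered position, 21733802, values above 0 were found in 5 libraries, at 10.3 to 48.0%, of which 2 were titled SSCT F2/P, 2 SSCT F1 and 1 SSCT F2/M. The latter was replicate 2, which read 30.8% at the followed CpG, whereas the other 4 were at 0 there.

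Gpx8 had 3 followed CpGs with at least 10 reads on chromosome 13. Those at 113045463 and 113045507 reached 10 reads in 7 and 8 libraries only and read 66.7 to 100%, the lowest being 1 library titled SSCT F1 with 18 reads at both. At 113045732, plus strand, control F0 read 69.0%, 58.9% and 63.0%, a mean of 63.6% ± 5.05 (SD, n = 3). SSCT F0 read 0%, 44.9% and 0% with 34, 274 and 14 reads, a mean of 14.96% ± 25.9 (SD, n = 3). The F0 groups did not overlap. The libraries titled SSCT F2/M were at 100% in 4 of 5 and at 62.5% in the fifth, those titled control F1 read 58.1 to 100%, those titled SSCT F1 27.3 to 100% and those titled SSCT F2/P 32.9 to 100%. Its nearest neighbour after it, at 113046160 and close to the gene's start, read 0 to 45.8% in offspring. The step from mostly methylated to mostly unmethylated therefore fell between 2975 and 3403 bp from the lower end of the span, and no other position between these had 10 reads in 13 libraries.

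F930017D23Rik had 2 followed CpGs with at least 10 reads on chromosome 10, 29903 and 30158 bp inside its span. At 43623330, plus strand, control F0 read 31.4%, 30.7% and 8.47%, and SSCT F0 0% in all 3 mice with 73, 93 and 273 reads. The F0 groups did not overlap here either. The libraries titled SSCT F2/M read 16.4%, 32.8%, 44.6%, 80.0% and 1.56%, a mean of 35.1% ± 29.9 (SD, n = 5), and this set, the highest, stands for SSCT under the titles and for control F1 under the exchanged names. Those titled SSCT F2/P read at most 7.02% and those titled control F1 at most 10.6%, whereas 2 of those titled SSCT F1 read 31.2% and 47.4% and 3 were at 0. The mean of the libraries titled SSCT F2/M rested on all but 1 of its mice.

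The second CpG was read on both strands. On the plus strand, at 43623585, control F0 read 0%, 16.9% and 0%, and on the minus strand, at 43623586, 0% in all 3. SSCT F0 replicate 1 read 0% on the plus strand and 55.6% on the minus strand, with 16 and 27 reads, and replicate 2 read 0% on both. Over 21 libraries with both strands the medians of neither strand exceeded 0, yet 6 libraries differed by more than 25 percentage points between them. The covered neighbour before these CpGs, at 43622198, read 82.1 to 100% in 19 libraries. The neighbour after them, at 43623680, read 0 to 16% in offspring and 0% in the 2 control F0 mice with 10 reads. In the 2 SSCT F0 mice with 10 reads it was at 46.7% and 0%. The followed CpGs thus lay between a methylated position and a mostly unmethylated one.

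Nudt1 had 1 followed CpG with at least 10 reads, at 140332948 on chromosome 5, 11326 bp inside its span and beyond that of Mrm2. Control F0 read 100%, 8.33% and 100%, and no SSCT F0 mouse had 10 reads. The libraries titled SSCT F2/M read 100%, 6.98%, 25.7%, 100% and 91.8%, those titled SSCT F2/P 100% in 4 and 63.0% in 1, those titled control F1 55.3 to 100% and those titled SSCT F1 60.5 to 100%. The SD over the 20 offspring was 27.5 percentage points, 3.61 times that of read sampling, against a median of 2.56 times for 56461 positions of the series with a pooled level from 10 to 90%. It exceeded the SD at 99.6% of 460453 positions covered in all offspring, most of which lay near 0 or 100%. The corresponding shares were 98.0% at F930017D23Rik 43623330 and 89.0% at Zfp229 21730817. At the 56461 positions with a pooled level from 10 to 90% the median SD was 16.1 points. The followed CpGs were chosen from contrasts among these same mice, so that a wide spread was part of the choice. At the neighbour 140333110, values ran only from 60.0 to 100% in offspring. The neighbour before it, 140332216, was at 0 in 15 of 16 libraries, the exception being 1 library titled control F1 at 57.9%.

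Lefty2 had 1 followed CpG, at 180893911 on chromosome 1, 803 bp inside its span. Control F0 read 51.7%, 11.3% and 23.3%, and the single SSCT F0 mouse with at least 10 reads was at 0 with 18 reads. The libraries titled control F1 (SSCT F2/P in the exchanged naming) read 56.2%, 50.0%, 80.6%, 55.0% and 47.1%, a mean of 57.8% ± 13.3 (SD, n = 5). Those titled SSCT F2/M (control F1 in the exchanged naming) read 23.9%, 19.2%, 0%, 14.9% and 21.1%, a mean of 15.8% ± 9.43 (SD, n = 5). These sets did not overlap, as was the case at 1 of 102 positions of the genes and at 0.140% of all positions tested in this pair of sets. The libraries titled SSCT F1 read 14.6 to 94.4% and those titled SSCT F2/P 0 to 83.3%, and both overlapped with each of the former. The 29 other positions of Lefty2 were low, and the first of them, at 180894110, was at 0 in 16 of 24 libraries and reached 72.7% in 1 titled control F1, with 11 reads.

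The whole-table test asked which positions differed between groups with a q under 0.01 and a difference of over 25 percentage points (chi-square likelihood-ratio test, Benjamini-Hochberg over all positions). Because the genes were chosen from these contrasts, their counts are given as a description. Between SSCT F0 and control F0, 1 of 23 positions of the genes was called, with 5.83% called of 82300 positions (3.20% lower in SSCT F0), and it was the Tal2 CpG 53786226, lower in SSCT F0. Under the titles, 0 of 104 positions were called for SSCT F1 (0.462% of all), 0 of 83 for SSCT F2 (0.187%), 3 of 102 for SSCT F2/M (0.420%) and 1 of 112 for SSCT F2/P (0.430%), each against control F1. The 3 were the CpGs of Zfp229 and F930017D23Rik, higher, and of Lefty2, lower, and the 1 was Tal2 53786542, higher. Beside the counts of 0, 41 of 104 and 25 of 83 positions had an unadjusted p under 0.05 in this test, and 7 in each case in an F test that takes in how far mice of a group vary. In the related genes described below these were 152 of 406 and 163 of 410 positions, and 24 and 37 by the F test. No count over all positions was made at this cut, so no excess can be read from these numbers.

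Under the exchanged names 5 of 105 positions were called for SSCT F1 (0.404% of all), 2 of 85 for SSCT F2 (0.161%), 3 of 105 for SSCT F2/M (0.439%) and 3 of 102 for SSCT F2/P (0.420%). For SSCT F1 these were Tal2 53786226, Zfp229, Gpx8 113045732 and F930017D23Rik 43623330, lower, and Nudt1 140332948, higher. Every called position in every one of these comparisons was a followed CpG. The study had chosen those CpGs from contrasts of these same libraries, so this match is not a separate result. Of the 105 positions of the genes in the SSCT F1 comparison, 98 differed by 10 percentage points or less. The F test called 0 positions of the genes, and 0 of all positions, in each comparison of SSCT with control groups under both namings. It called none anywhere, with few mice in each group and an adjustment over all positions. Its 0 for the genes therefore does not show that they did not differ.

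At all positions of the genes the F0 groups could be compared only where the sparse SSCT F0 libraries had reads. Of 23 positions covered in all 6 F0 libraries, 19 differed by at most 10 percentage points in the means of the mice. At 0 in every SSCT F0 mouse were 17 of them, against 7 in every control mouse. Such zeros were not counted over all positions. The 23 had to be read in SSCT F0 replicate 3, where only 6.73% of all reads were methylated. No loss particular to these genes can therefore be read from the 17. Groups without overlap were found at 2 positions, the Gpx8 and F930017D23Rik CpGs described above, with 3.10% of all positions. At the Gpx8 CpG the reads of all mice together gave 38.2% in SSCT F0 and 63.0% in control F0, since replicate 2 held most SSCT reads. That difference did not reach 25 points, although the means of the mice differed by -48.7 points. Without SSCT F0 replicate 3, 115 positions could be compared, of which 101 differed by at most 10 points and 3 by more than 25. The 3 were Gpx8 113045732, lower in SSCT F0, and F930017D23Rik 43623586 and Lefty2 180894275, higher. At the latter the 2 SSCT F0 mice read 0% and 100% and control F0 6.67%, 6.12% and 26.5%.

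**Figure D3:**
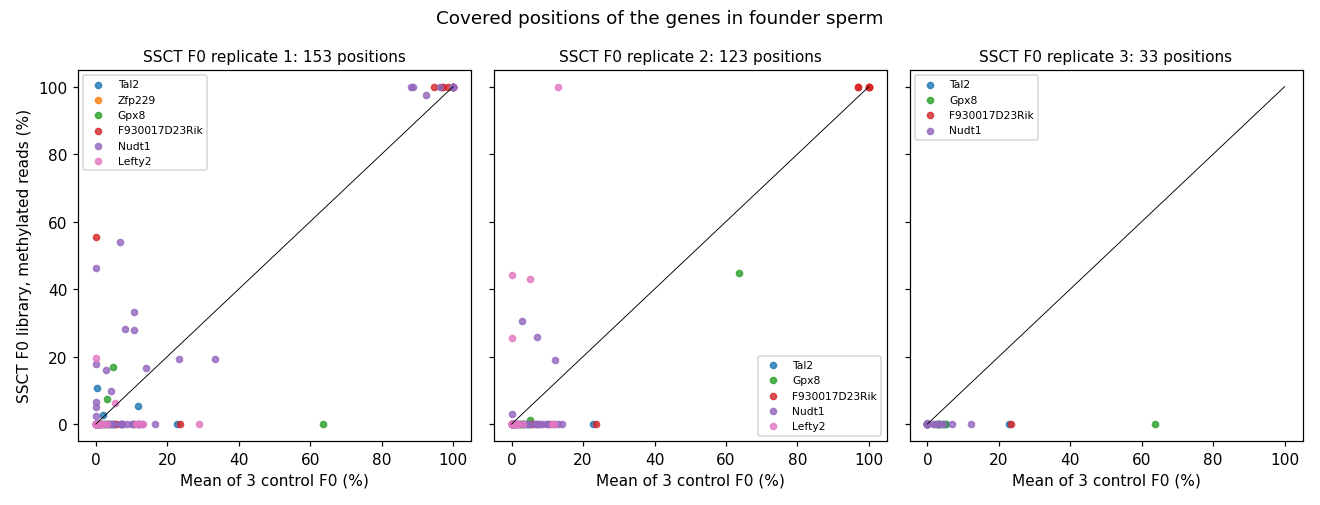
Level in each SSCT F0 library (vertical axis, percent) against the mean of the 3 control F0 libraries (horizontal axis, percent) at positions of the genes with at least 10 reads in those libraries, with positions of Mrm2 drawn under Nudt1. Replicates 1, 2 and 3 offered 153, 123 and 33 positions, and in replicate 3 none of the 33 exceeded 0.4065%.

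The number of positions lost in SSCT F0 was uneven between the genes. SSCT F0 replicate 1 covered 33 of 40 Tal2 positions at 10 reads, replicate 2 27 and replicate 3 6. For Nudt1 the numbers were 135, 101 and 21 of 200, for Gpx8 16, 15 and 7 of 23, and for F930017D23Rik 23, 18 and 1 of 50. At Zfp229 and Lefty2 replicate 3 covered 0 positions. Mean levels of SSCT F0 mice over the positions read in control F0 and all offspring lay inside and outside the offspring range, depending on gene and mouse. For Gpx8, replicates 1 and 2 read 1.06% and 0.149%, below the lowest offspring at the same positions, at 3.17% and 2.78%. Over all 8 such Gpx8 positions control F0 replicates 1 and 2 also lay below the lowest offspring of 2.78%, at 1.04% and 0.266%. Control F0 replicate 3 read 6.15%. For Nudt1, replicate 1 read 24.3%, above the offspring at 19.2 to 21.9%, and replicate 2, which covered 22 positions, 1.52%, within their 0.857 to 3.12%. For Mrm2, whose positions are among those of Nudt1, replicate 1 read 37.8% against 32.2 to 35.9%, and replicate 2 0% against 0 to 3.68%. Control F0 replicate 1 was above the offspring as well, over all 32 such Nudt1 positions (27.4% against 21.4 to 26.1%) and all 18 of Mrm2 (41.2% against 32.8 to 39.4%). Control F0 replicates 2 and 3 lay within these ranges. For Tal2, replicate 1 read 1.24%, within the offspring range of 0.317 to 4.24%, and replicate 2 0%, below it. For Lefty2, replicate 1 was at 0 and replicate 2 at 11.1%, against 0 to 9.86%, and for F930017D23Rik both read 83.3%, within 78.0 to 96.7%. At Tal2, Lefty2 and F930017D23Rik every control F0 mouse lay within the offspring range.

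Control F0 was also compared with the 20 offspring, which does not depend on the names of the offspring sets. The genes were not chosen from this contrast, but control F0 and the offspring both entered the contrasts that chose them, so that the values are not independent of the choice. Age and generation differ together in it. None of the positions of the genes that could be tested was called, 0 of 71, beside 0.288% called of 431983 positions, and all 71 differed by at most 10 percentage points. At an unadjusted p under 0.05 there were 31 by the chi-square likelihood-ratio test and 4 by the F test, which called 0 of the 71 and 18 of all positions. Among 300 positions of the related genes described below, 102 and 22 reached that unadjusted cut. It was not counted over all positions. The median absolute difference was 1.43 points at the 71 positions and 1.58 points at all positions. The followed CpGs of Zfp229, F930017D23Rik and Nudt1 were among the 71.

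As 1 value per mouse, the mean over these positions without the followed CpGs was compared gene by gene with a two-sided exact permutation test of all 1771 regroupings. A single regrouping gives 0.000565 in 1 tail, and the test doubles the smaller tail. Leaving out the followed CpGs was decided after the means with them had been seen. Zfp229 had no other such position and was not tested. Gpx8 read 2.48% ± 3.20 (SD, n = 3) in control F0 and 8.94% ± 5.10 (SD, n = 20) in offspring over 8 positions, a difference of -6.46 points (exact permutation p = 0.0124, not adjusted for the 6 genes tested). All 20 offspring lay above the control F0 mean, but only 11 above the highest control mouse, at 6.15%, and without control F0 replicate 2 the exact p was 0.0952. The other 5 genes gave an exact p between 0.0836 and 0.893. Nudt1 read 23.8% ± 1.097 (SD, n = 3) and 22.9% ± 0.690 (SD, n = 20) over 31 positions, with an exact p of 0.0836, against 0.482 with its followed CpG. Mrm2 read 35.6% and 34.4% over 17 positions (exact permutation p = 0.139, and 0.649 with that CpG). For Tal2 the means were 1.88% and 1.74% over 15 positions, for Lefty2 3.48% and 3.34% over 9, and for F930017D23Rik 98.8% and 98.3% over 5.

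**Figure D4:**
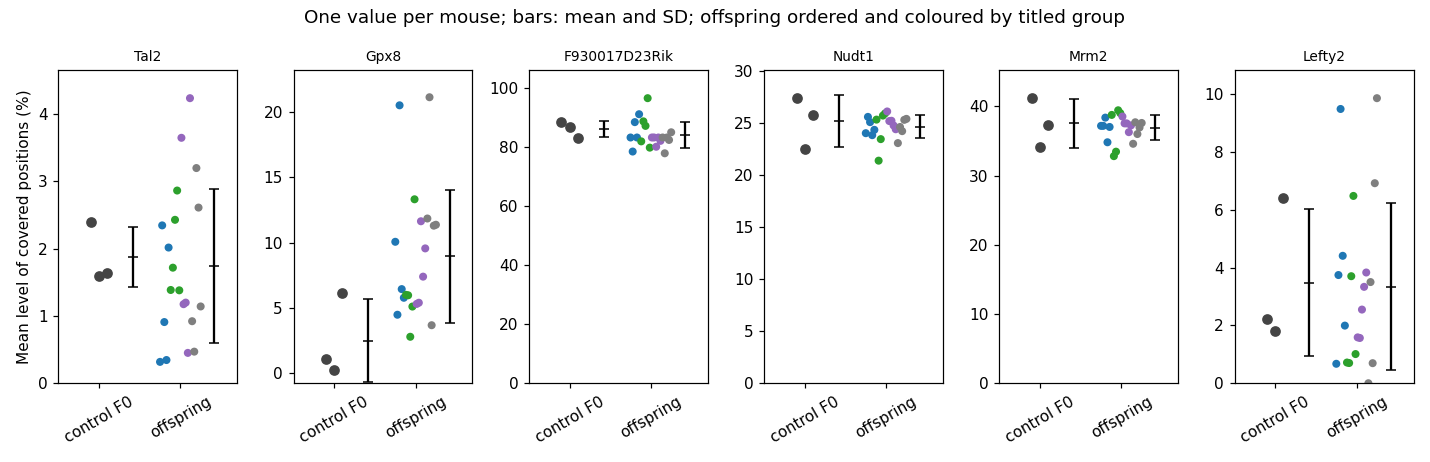
Mean level of the positions covered in control F0 and all offspring, 1 point per mouse, in percent, for 6 genes, with the followed CpG included in F930017D23Rik, Nudt1 and Mrm2. Bars beside the points give the mean and SD of the 3 control F0 and the 20 offspring mice, and offspring are ordered and coloured by title. For Gpx8 the 20 offspring lie above the mean of the control F0 mice of 2.48%, and in the other panels the groups overlap around similar means.

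A CpG is a palindrome, and its strands are read separately in RRBS. Over 84 CpGs of the genes read on both strands, 1252 library values could be paired. They differed by a median of 0 points, and by more than 25 points in 5.67% of pairs, against 7.33% of 6679084 pairs in the whole series. The agreement rested on positions near 0 or 100%. Of the 143 pairs with a mean of 10 to 90%, 49.7% differed by more than 25 points, and 54.9% in the whole series. Tal2 had 0 of 186 pairs beyond 25 points and Lefty2 7 of 190. In Nudt1 these were 44 of 721, in F930017D23Rik 9 of 115 and in Gpx8 11 of 40.

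Single CpGs showed how far strands could differ in 1 mouse. At the Gpx8 CpG 113046160 and 113046161, replicate 1 of those titled SSCT F2/M read 0% on the plus and 100% on the minus strand, with 16 reads each, and 8 of 17 libraries differed by more than 25 points. At the Nudt1 CpG 140333110 and 140333111, next to the followed one, control F0 replicate 1 read 93.6% and 33.3% with 47 and 30 reads, although the strands had means of 87.2% and 80.5% over 19 libraries. At the Lefty2 CpG 180894308 and 180894309, replicate 2 of those titled SSCT F2/M read 72.7% and 0% with 11 and 41 reads. Over the mice the strands had means of 7.61% and 7.25% at this Lefty2 CpG, and of 16.8% and 6.12% at the Gpx8 CpG.

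Neighbouring CpGs of 1 strand agreed more closely when less than 50 bp apart. Over 4209 such pairs of the genes, 4.04% differed by more than 25 points, and 6.37% in the whole series. In 74.7% of them both positions had the same number of reads, so that they were largely read on the same fragments and are not independent measurements. From 50 to 1000 bp, where 1.12% had equal coverage, 20.7% of 714 pairs differed by more than 25 points, against 15.2% in the whole series. Gpx8 had 30 of 90 such pairs beyond 25 points, F930017D23Rik 25 of 99, Lefty2 24 of 127 and Nudt1 68 of 375. The paired values share libraries and positions, and no test was made of these shares.

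**Figure D5:**
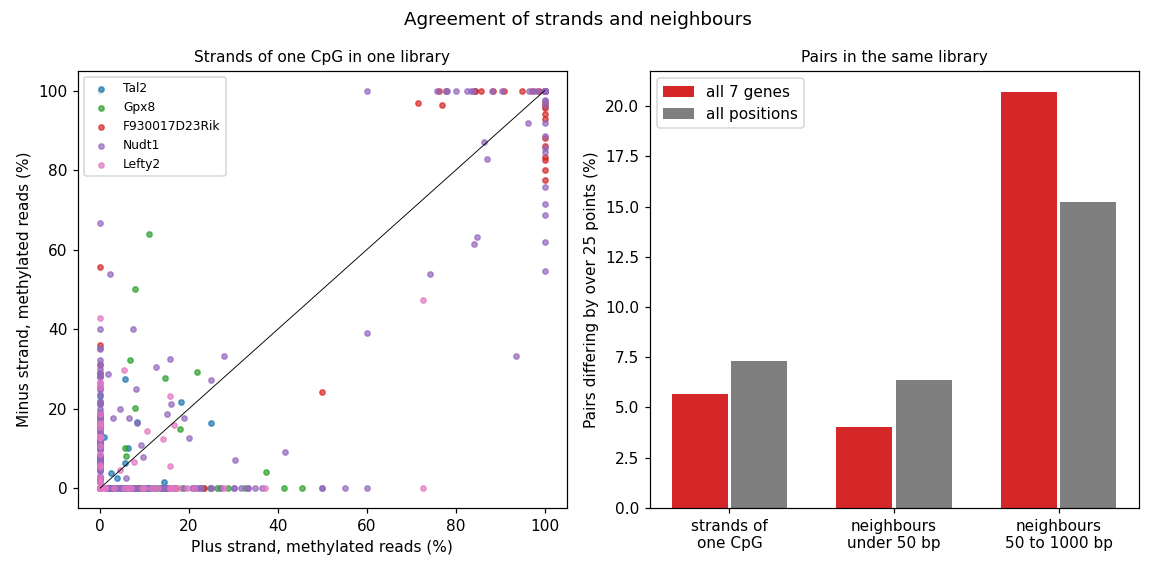
Left: level on the minus strand against the plus strand of the same CpG in the same library, in percent, for positions with 10 reads in 13 or more libraries. Right: share of pairs that differ by more than 25 percentage points, in percent, for the genes and for all positions. Most points off the corners of the left panel lie along its edges, at 0 or 100% on 1 strand, and the genes stand at 5.67%, 4.04% and 20.7% beside 7.33%, 6.37% and 15.2% for all positions.

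A list of 22 related genes (other helix-loop-helix factors, glutathione peroxidases, Nodal pathway members, ribosomal RNA methyltransferases, enzymes against oxidised bases and zinc finger genes) was counted in the same fits. Of these, 21 were in the gene table. Between SSCT F0 and control F0, 1 of 53 positions in 9 of them was called, lower in SSCT F0, beside 5.83% of all positions. Between control F0 and offspring 0 of 300 positions in 19 of them were called by the chi-square test, beside 0.288% of all positions, with 102 at an unadjusted p under 0.05, and 22 so by the F test. Positions of the whole series were not counted at the unadjusted cut. In the comparisons of offspring groups 0 or 1 position was called among 356 to 550 tested, under both namings, beside 0.161 to 0.462% of all positions.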

How the data were processed

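Sperm DNA of 26 male mice was measured by RRBS (Diagenode kit, 50 bp single reads, HiSeq3000). The submitters' processing notes name FastQC, Trim Galore 0.4.1, Bismark 0.20.0, methylKit 1.7.0 and GRCm38 (mm10). For each library the authors deposited CpG positions by strand with the fraction methylated and the coverage as a count of reads, and the deposited fraction times the coverage gave whole methylated reads at every position (within 0.01 reads, or 1e-06 of the coverage where that is more). Reads carry no molecular identifiers, so that counts of reads are not counts of molecules.

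Positions entered a comparison with 10 reads or more in each of its libraries and with at most the 99.9th percentile of positions with 10 reads. An earlier run took that percentile over all listed positions, and it was changed after its totals had been compared with totals already known for these data; the counts for the genes were equal. A logistic model was tested per position by a chi-square likelihood-ratio test with Benjamini-Hochberg adjustment over all positions (q under 0.01, read-weighted difference above 25 points), in Python 3.11.15 with NumPy 2.4.6 and SciPy 1.17.1, and the procedures were tested on simulated data. Single values per mouse were compared by exact permutation. Groups follow the sample titles. Positions named are the followed CpGs, their other strand and nearest covered neighbours, and per gene the CpG with the largest F0 difference or offspring range. The members and lists were chosen with earlier results of these data known. Alternatives were other coverage limits, thresholds, tests, merged strands, windows, namings, a replicate block and leaving out libraries.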

Additional observations from a re-analysis of the deposited data

Results flagged for a closer look

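Within titled groups of 4 or 5 mice, 11 of 33 groups at the followed CpGs with values that were not all equal held 1 library far from the others (Dixon's test). Chance flags about 1 group in 20 where values are normally distributed. These values pile up at 0 and 100% at CpGs chosen from these mice, so no excess can be read from the 11. In 8 of the 11 the other libraries had no spread at all, so that any deviating value is marked. At Tal2 53786226 this was SSCT F1 replicate 4 at 74.2%, with the others at 0, and at Tal2 53786542 control F1 replicate 2 at 100% with 15 reads, with the others at 0. At Zfp229 21730817 it was SSCT F1 replicate 2 at 2.33%, against 0. At Gpx8 113045463 SSCT F2/M replicate 5 was lowest at 92.9% and at 113045732 SSCT F2/M replicate 4 at 62.5%, against 100%. At F930017D23Rik 43623330 control F1 replicate 5 was highest at 10.6% and at 43623585 SSCT F2/M replicate 3 at 23.3%, against 0, and at 43623586 control F1 replicate 3 at 43.8%, against 12.5% for the next. At Nudt1 140332948 SSCT F1 replicate 3 was highest at 100%, against 69.6%, and SSCT F2/P replicate 4 lowest at 63.0%, against 100%. At Lefty2 180893911 control F1 replicate 3 was highest at 80.6%, against 56.2%. Group and replicate follow the titles.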

How the results depend on the processing

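Of 151 recomputed values 124 kept within 1.5 times of the main count or within the spread used, or kept the direction and side of the threshold of a test, and 27 moved. The count for control F0 against all offspring was 0 under all 33 alternatives. Counts over all positions follow in brackets. For SSCT F0 against control F0 the count of called positions was 1 of 23 (4796 of 82300). It became 0 of 23 with the F test (0 of 82300) and 0 of 20 at 20 reads (2993 of 49143). At a difference of 10 points it was 3 of 23 (9966 of 82300). SSCT F0 replicate 1 alone, an alternative chosen after seeing the data, leaves 1 library in its group, and its count is not given. Without single libraries the count was 1 to 3, with 3 of 115 without SSCT F0 replicate 3 (34961 of 599451). It was 2 of 27 without SSCT F0 replicate 2 (7718 of 110584) and 2 of 23 without control F0 replicate 2 (5350 of 83638). For SSCT F1 the count of 0 of 104 became 8 of 104 at 10 points (31255 of 597393) and 5 of 105 under both other namings (2885 of 714804). It was 0 to 1 without single libraries, with 1 of 110 without SSCT F1 replicate 5 (3874 of 619266). For SSCT F2 the 0 of 83 became 5 of 83 at 10 points (20868 of 569896) and 2 of 85 under both other namings (814 of 504896). It was 0 to 1 without single libraries, with 1 of 88 without SSCT F2/P replicate 2 (1214 of 579089). For SSCT F2/M the 3 of 102 (2790 of 664351) became 0 with the F test (0 of 664351) and 9 of 102 at 10 points (33264 of 664351). At 20 reads it was 1 of 45 (579 of 251799), and without single libraries 3 to 4. For SSCT F2/P the 1 of 112 (2989 of 695210) became 0 with the F test (0 of 695210) and 4 of 112 at 10 points (35187 of 695210). It was 3 of 187 at 5 reads (6776 of 1072068) and 0 of 57 at 20 reads (600 of 269295). Under the heat map it was 3 of 105 (2675 of 609446), under the exchanged names 3 of 102 (2790 of 664351), and without single libraries 1. The percentile taken over all listed positions, also added after seeing the data, changed no count. Other positions enter under the coverage settings and other groups under the naming settings, and further causes were not tested. Strand pairs beyond 25 points went from 5.67% to 3.37% at 20 reads, and close neighbours from 4.04% to 2.80% at 20 and 4.77% at 5 reads. Leaving out the followed CpGs, an alternative added after seeing the data, moved the control F0 minus offspring difference of gene means from 2.03 to 0.50 points in F930017D23Rik, from 0.586 to 0.901 in Nudt1 and from 0.624 to 1.202 in Mrm2.

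The replicate numbers of the titles do not pair mice: deviations from group means correlated by -0.0149 to 0.0254 between same-numbered libraries and by -0.0215 to 0.0138 between others. With the replicate block the counts of called positions were 1 for SSCT F0, 0 for SSCT F1, 0 for SSCT F2, 3 for SSCT F2/M, 1 for SSCT F2/P and 0 for control F0 against offspring, as without it.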
